A study of Mus musculus with 12 samples.

Results

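Mouse ependymomas that overexpress ETV5 were compared with control ependymomas of the same model, gene by gene, by RNA sequencing. The comparison used 6 of the 12 libraries of the series: 3 labelled as ETV5 overexpressing tumours and 3 labelled as control tumours, taken from the table that also holds 3 libraries of non-tumour cortex. All 6 tumours carry ZFTA-RELA, the fusion of a zinc finger protein with the NF-kB subunit RELA that drives most ependymomas of the forebrain. The ETV5 tumours carry in addition a human variant of ETV5, per the genotype label. Cortex came from wild-type mice and is used here for levels alone. The labels give no strain, age, vector, promoter or cell of origin for the tumours, and do not say whether a replicate is 1 animal, so p-values measure the spread among these libraries. Of the 24421 genes in the table, 14382 had enough reads in the 6 tumour libraries to be tested.

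ETV5 belongs to the PEA3 group of ETS transcription factors, together with ETV1 and ETV4. These factors bind DNA at sites built around the core GGAA, and their genes are switched on by receptor tyrosine kinases, above all FGF receptors, through the ERK pathway. In the developing brain ETV5 is known for a part in gliogenesis. Neuropeptide Y (NPY), which the same series overexpresses in another set of tumours, is a peptide transmitter of cortical interneurons that acts on G protein-coupled Y receptors. The series title concerns serotonylation of histones, the linking of serotonin to a glutamine by transglutaminase, and neurodevelopmental pathways.

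Depth was 6266613 to 9443466 reads in the control libraries and 6691146 to 11291057 reads in the ETV5 libraries. Levels are CPM (reads of a gene scaled to the total reads of its library). They are set side by side for 1 gene across libraries, not between genes. Genes tied to the tumour model had reads in every tumour library. A count at a partner gene of the fusion does not tell the fusion transcript from that of the mouse gene. Rela, the fused NF-kB subunit, stood at 84.4, 104 and 73.9 CPM in control libraries 1, 2 and 3 and at 105, 85.2 and 104 CPM in ETV5 libraries 1, 2 and 3, against 18.5 to 19.1 CPM in cortex. Igf2, a growth factor gene of this tumour type, stood at 3525, 6444 and 3822 and 5499, 5404 and 6328 CPM in the same order. L1cam, a surface marker of human tumours with this fusion, was low, at 6.67, 9.8 and 15.8 and 2.76, 6.87 and 3.99 CPM, under its cortex level of 111 to 147 CPM. Both groups mixed libraries with high Xist, the RNA of the inactive X chromosome, and libraries with high Ddx3y, a gene of the Y chromosome. Xist stood at 0.741, 499 and 479 CPM in the controls and 641, 0.299 and 0.177 CPM in the ETV5 tumours, and Ddx3y at 87.5, 0.33 and 0 and 0, 104 and 124 CPM. Control library 1 and ETV5 libraries 2 and 3 thus shared the Y-linked pattern. The library code of ETV5 library 3 has another prefix than the other 5, and what the prefix stands for is not given in the sources used here.

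No gene passed the test between ETV5 and control tumours at an adjusted p under 0.05 in limma, which was fitted to log2(deposited value + 1). That is 0% of genes in either direction, and the lowest adjusted p was 0.732. The edgeR quasi-likelihood test and limma-voom on the recovered reads also called 0 genes, while DESeq2 called 76, which is 0.528% of the genes tested, 17 higher (0.118%) and 59 lower (0.41%) in ETV5 tumours. At an unadjusted p under 0.05 limma gave 944 genes (6.56%), 272 of them higher (1.89%) and 672 lower (4.67%). With scaling by TMM, a normalization that trims extreme genes, the genes at that p were 397 higher and 601 lower. In the edgeR test 999 genes had an unadjusted p under 0.05, 432 of them higher and 567 lower. In limma-voom 1054 did, 389 higher and 665 lower, and in DESeq2 526 were higher and 782 lower. With 1 library left out, the limma split was most even without ETV5 library 1, at 624 higher and 836 lower. It was least even without control library 3, at 108 higher and 566 lower. Lower genes outnumbered higher ones in each of these fits, by a margin that depended on method and on single libraries.

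The groups did not overlap, with every ETV5 library above or every ETV5 library below all 3 controls, for 901 genes higher (6.26%) and 1076 lower (7.48%). Overlap was judged on the deposited values, which carry a size factor per library, so a near tie in CPM can order otherwise. These shares are the background for each count of list members without overlap. Differences of 2-fold or more in limma were on the lower side for 982 genes and on the higher side for 129. With non-overlap as a further condition these counts were 398 lower and 40 higher. ETV5 library 1 by itself lay at least 4-fold under all other libraries for 172 genes and at least 4-fold above them for 29. Across all genes tested the median log2 fold change (ETV5 minus control) was -0.02, with 48.1% of genes above 0. The ETV5 libraries also varied more among themselves: the median standard deviation of a gene on the log2 scale was 0.37 in ETV5 tumours and 0.25 in controls, and it was larger in ETV5 tumours for 69.1% of genes.

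**Figure D1:**
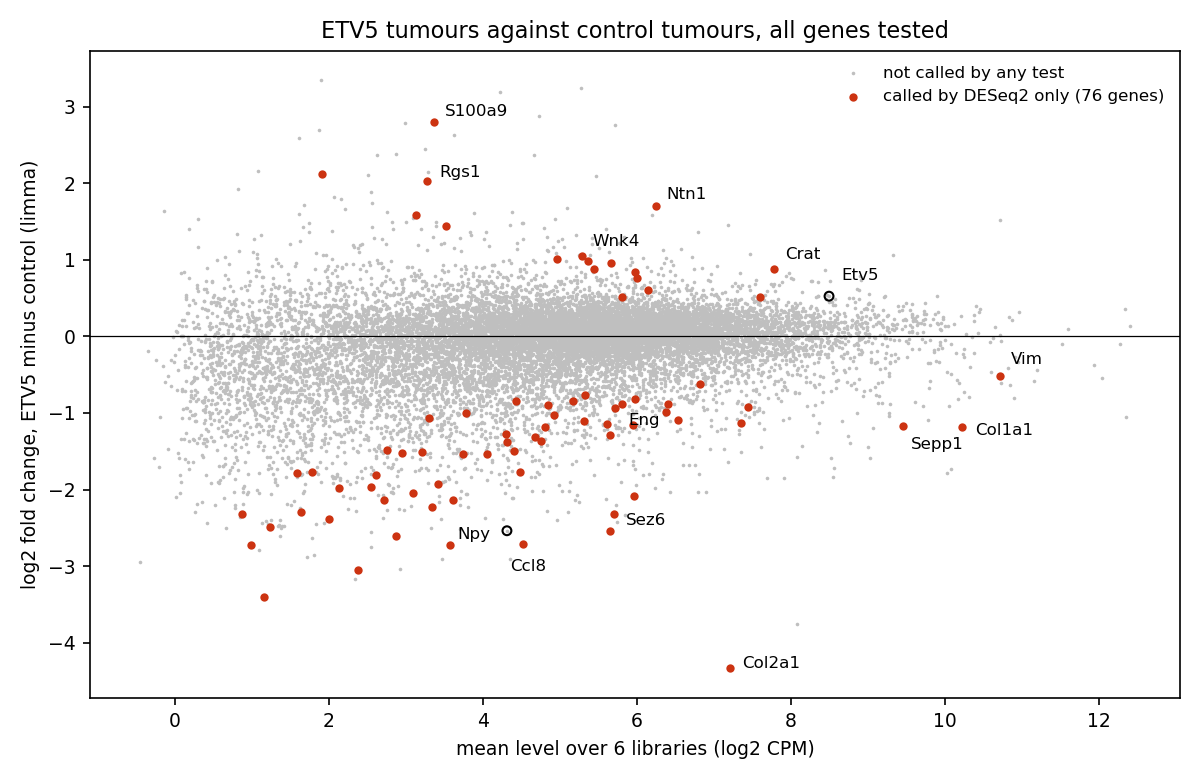
Each point is 1 of 14382 genes, with its mean level over the 6 tumour libraries (log2 CPM) across and its log2 fold change (ETV5 minus control, limma) up the axis. The 76 genes called by DESeq2 are red, no gene was called by limma, and open circles mark Etv5 (0.52) and Npy (-2.54), which no test called. More large differences lie under 0 than over it.

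Mouse Etv5 was higher in every ETV5 library than in every control. The gene (mm10 chromosome 16, 22381309 to 22439719, minus strand) stood at 264, 322 and 299.5 CPM in control libraries 1, 2 and 3, at 407, 474 and 401 CPM in the ETV5 libraries and at 106, 144 and 109 CPM in cortex. Its log2 fold change was 0.52 (SE 0.16) and did not pass (limma adjusted p = 0.732). Left out 1 at a time, the libraries gave 0.45 to 0.61. The overexpressed ETV5 is human and the reads were aligned to the mouse genome, so a count at mouse Etv5 is no direct measure of the transgene, and which part of it comes from human transcripts was not tested.

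The other members of the PEA3 group had higher means with overlapping groups. Etv4 stood at 45.1, 26.6 and 31.3 CPM in controls and 44.4, 69 and 57.8 CPM in ETV5 tumours (log2 fold change 0.73, SE 0.26). ETV5 library 1 lay under the highest control for this gene. Etv1 stood at 32.3, 27.5 and 33.7 and 23.9, 84.9 and 40.1 CPM, with ETV5 library 1 under every control and ETV5 library 2 above all. Its log2 fold change of 0.47 (SE 0.44) was -0.01 without ETV5 library 2.

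Genes that answer to ERK signalling, among them known PEA3 targets, leaned to the higher side in the ETV5 tumours, and 1 library carried most of the lean. Of the 15 tested, 13 had a log2 fold change above 0 and 2 did not overlap with the controls, both higher (6.26% of all genes). The median was 0.43, against -0.02 over all genes tested. Library by library, the median deviation of these genes from their control mean was 0.05, 0.72 and 0.21 in ETV5 libraries 1, 2 and 3. Without ETV5 library 2 the median of the list was 0.14. No gene of the list was called by limma or DESeq2.

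Spry4, a Sprouty inhibitor of receptor kinase signalling, stood at 53.7, 53.4 and 60.0 CPM in the controls and at 89, 219 and 95.7 CPM in the ETV5 tumours. All 3 ETV5 libraries lay above the controls, with library 2 the highest by far (log2 fold change 1.13, SE 0.34). Errfi1, a feedback inhibitor of the EGF receptor, stood at 30.2, 36.2 and 31.8 CPM against 41.5, 101 and 62.3 CPM, with the same order of libraries (0.95, SE 0.33). Spry1, of the Sprouty family too, stood at 17.9, 16.1 and 17.6 CPM against 18.2, 113 and 39.7 CPM, so library 1 was level with the controls. Dusp6, the phosphatase that switches off ERK, stood at 110.1, 101 and 95.7 CPM against 106, 240.0 and 105 CPM. ETV5 libraries 1 and 3 were within the control range for Dusp6 and library 2 was above it. Il17rd, the FGF signalling inhibitor Sef, went the same way, at 10.5, 7.93 and 8.94 against 8.53, 42.4 and 7.09 CPM, and its log2 fold change of 0.58 was -0.22 without ETV5 library 2. Spry2 stood at 34.4, 39 and 50.1 against 42.5, 104 and 45.9 CPM.

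Dusp4, a nuclear phosphatase of ERK, had another order, at 6.35, 24.5 and 14 CPM in controls and 85.4, 19.4 and 33.6 CPM in ETV5 tumours, with library 1 the highest. Dusp5 had the opposite sign (3.07, 2.2 and 2.55 against 0.787, 2.69 and 0.531 CPM, log2 fold change -1.19, SE 0.62). The growth genes Ccnd1 and Myc, which ERK signalling induces in many cells, overlapped between groups. Ccnd1 (cyclin D1) stood at 470.3, 727 and 723 against 708, 1267 and 680.3 CPM, and Myc at 18, 18.3 and 15.2 against 19.4, 26.6 and 17.8 CPM.

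**Figure D2:**
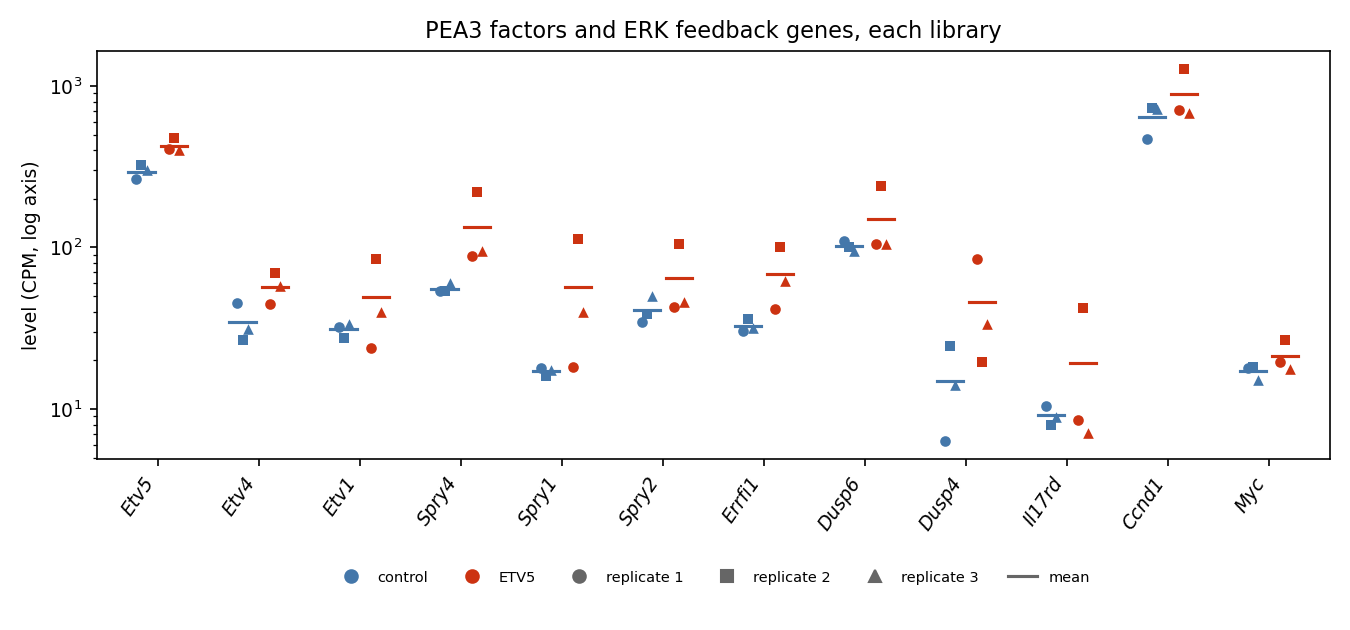
Levels (CPM, log axis) of PEA3 factors and ERK feedback genes in the 3 control (blue) and 3 ETV5 (red) libraries, with replicates by symbol and group means as bars. ETV5 library 2 (red square) is the highest of the 6 for 11 of the 12 genes shown, Dusp4 being the exception. Not all genes of the list are shown, and Dusp5, left out here, was highest in a control library.

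Promoters of 5 genes are printed, since the overexpressed factor belongs to a family that binds GGAA and since Npy, Npy2r and Gal were lower in every ETV5 library. Spry2 is an example of the ERK feedback genes and does not stand for all of them. Each sequence runs from 250 bases before to 50 bases after a RefSeq start (GRCm38.p6, the mm10 assembly), 5′ to 3′ on the strand of the gene, and Etv5 has 2 such starts. Capitals mark GGAA and its reverse complement TTCC.
Etv5, first start (chr16:22439521-22439820, minus strand): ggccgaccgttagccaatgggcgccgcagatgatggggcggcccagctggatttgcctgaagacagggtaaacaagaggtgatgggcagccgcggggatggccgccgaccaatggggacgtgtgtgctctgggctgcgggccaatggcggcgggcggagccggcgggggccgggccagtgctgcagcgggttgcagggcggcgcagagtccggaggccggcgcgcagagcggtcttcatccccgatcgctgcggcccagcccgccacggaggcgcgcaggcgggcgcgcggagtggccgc
Etv5, second start (chr16:22438319-22438618, minus strand): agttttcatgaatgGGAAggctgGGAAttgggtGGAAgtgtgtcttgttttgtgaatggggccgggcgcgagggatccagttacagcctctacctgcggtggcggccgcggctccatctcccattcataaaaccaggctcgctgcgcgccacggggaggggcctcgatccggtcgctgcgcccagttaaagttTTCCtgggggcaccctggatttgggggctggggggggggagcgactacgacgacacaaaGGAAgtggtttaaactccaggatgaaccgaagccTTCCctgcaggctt
Spry2 (chr14:105896770-105897069, minus strand): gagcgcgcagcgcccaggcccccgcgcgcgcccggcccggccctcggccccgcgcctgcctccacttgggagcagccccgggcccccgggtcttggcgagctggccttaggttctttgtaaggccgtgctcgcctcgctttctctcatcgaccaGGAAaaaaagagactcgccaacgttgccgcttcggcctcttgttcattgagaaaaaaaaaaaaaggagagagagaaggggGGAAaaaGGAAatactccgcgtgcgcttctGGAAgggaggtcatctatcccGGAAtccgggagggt
Npy (chr6:49822460-49822759, plus strand): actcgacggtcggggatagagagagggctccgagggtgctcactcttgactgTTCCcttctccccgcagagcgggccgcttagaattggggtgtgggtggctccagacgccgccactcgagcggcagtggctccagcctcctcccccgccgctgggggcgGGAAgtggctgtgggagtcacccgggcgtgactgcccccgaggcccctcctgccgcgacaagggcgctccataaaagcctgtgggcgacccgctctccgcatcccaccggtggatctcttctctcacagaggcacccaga
Npy2r (chr3:82548036-82548335, minus strand): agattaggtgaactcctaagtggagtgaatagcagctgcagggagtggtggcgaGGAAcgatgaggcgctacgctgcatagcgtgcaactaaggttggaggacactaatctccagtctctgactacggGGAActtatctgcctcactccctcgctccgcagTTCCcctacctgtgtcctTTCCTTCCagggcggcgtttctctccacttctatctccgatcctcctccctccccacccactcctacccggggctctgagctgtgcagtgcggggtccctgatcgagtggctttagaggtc
Gal (chr19:3414495-3414794, minus strand): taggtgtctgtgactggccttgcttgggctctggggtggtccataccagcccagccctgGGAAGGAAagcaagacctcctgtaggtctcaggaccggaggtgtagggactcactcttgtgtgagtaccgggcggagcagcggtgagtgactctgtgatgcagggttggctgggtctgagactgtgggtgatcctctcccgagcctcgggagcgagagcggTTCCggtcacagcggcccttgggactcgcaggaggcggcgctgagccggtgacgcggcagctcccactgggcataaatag
The core occurred 2 times in the Npy window, 5 times in Npy2r, 3 times in Gal and 5 times in Spry2. For Etv5 it occurred 0 times at the first start and 6 times at the second. It is a short motif: 96% of 32851 such windows hold it on either strand, with a median of 3 per window. The longer ETS motif CCGGAA, which contains the core, was in the Spry2 and Gal windows and in 14.9% of all windows. It was absent from the windows of the ERK feedback genes Spry1, Errfi1 and Dusp6, which are not printed. The full motif CCGGAAGT, in 3.89% of all windows, was in none of the 6 windows printed. A match describes the letters and says nothing of binding.

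Npy was lower in every ETV5 library than in every control. The gene (mm10 chromosome 6, 49822710 to 49829507, plus strand) stood at 27.2, 21.5 and 46.1 CPM in control libraries 1, 2 and 3 and at 1.44, 18.5 and 4.69 CPM in ETV5 libraries 1, 2 and 3, while cortex stood at 78.4, 128 and 129 CPM. ETV5 library 2 was just under the lowest control and ETV5 library 1 was the lowest of all. The log2 fold change was -2.54 (SE 0.86) and did not pass (limma adjusted p = 0.732, DESeq2 adjusted p = 0.361). Left out 1 at a time, the libraries gave -3.45 to -1.66.

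All 8 tested genes of the NPY system had a log2 fold change below 0, and 4 of them were lower without overlap, against 7.48% of all genes. Their median was -0.88, and it was -0.45 without ETV5 library 3 and -0.57 without control library 3. Of the receptors, Npy2r, the presynaptic Y receptor, stood at 2.44, 3.19 and 7.66 CPM in controls against 0.262, 1.2 and 0.62 CPM in ETV5 tumours (log2 fold change -2.47, SE 0.66). All 3 ETV5 libraries were low for it, library 2 included. Npy1r, the main postsynaptic receptor, stood at 6.67, 3.74 and 7.66 against 3.81, 3.59 and 3.1 CPM. Its groups did not overlap as deposited, and in CPM control library 2 was a shade under ETV5 library 1. Of the processing enzymes, Pam, which amidates the peptide's end, stood at 141, 142 and 161 against 137, 126 and 88.7 CPM (-0.37, SE 0.18). Pcsk2, a convertase of prohormones, stood at 16.9, 22.5 and 49.8 against 1.84, 30.8 and 10.1 CPM, with ETV5 library 2 inside the control range. The convertase Pcsk1 (0.635, 4.18 and 5.27 against 2.89, 1.64 and 0.354 CPM), the trimming enzyme Cpe (1072, 1349 and 1474 against 1182, 1336 and 847 CPM) and Dpp4, which shortens the peptide (7.2, 2.97 and 7.82 against 9.97, 2.24 and 1.24 CPM), overlapped between groups. Pyy and Npy4r had 0 reads in each tumour library, which allows up to 3 reads in each by counting error alone, and Npy5r had too few to be tested.

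Other neuropeptide genes stood lower still as a list. Of 12 tested, 11 were below 0, with a median log2 fold change of -2.19, and 2 were lower without overlap (7.48% of all genes). The median was -1.31 without ETV5 library 1. Gal (galanin) stood at 2.86, 1.98 and 7.66 against 0.394, 1.2 and 0.266 CPM, low in each ETV5 library. Vgf, a secretory protein and peptide precursor of neurons, stood at 15.4, 17.2 and 34.5 against 2.36, 11.7 and 3.01 CPM. Sst (somatostatin), which many Npy interneurons also make, stood at 15.8, 10.7 and 32.4 against 0.394, 15.5 and 3.54 CPM. Cck (cholecystokinin) stood at 16.2, 18.7 and 46.1 against 0.394, 26.5 and 7.09 CPM, and Scg2 (secretogranin) at 15, 30.3 and 50.6 against 2.49, 21.5 and 5.14 CPM. For Sst, Cck and Scg2, ETV5 library 2 was inside the control range and ETV5 library 1 was far under it. The exception in sign was Tac2, at 0.635, 0.881 and 2.55 against 4.07, 1.64 and 0.531 CPM (0.40, and -0.23 without ETV5 library 1).

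Genes of neurons in general showed the same order of libraries. All 16 pan-neuronal genes tested had a log2 fold change below 0 (median -1.27, and -0.69 without ETV5 library 1), and 5 of them were lower without overlap (7.48% of all genes). Their median deviation from the control mean was -2.53, -0.23 and -1.30 in ETV5 libraries 1, 2 and 3 and -0.22, -0.35 and 0.50 in the controls. The summed level of the 16 was 853 to 1663 CPM over the controls and 324 to 1083 CPM over the ETV5 libraries, and none was at 0 in any library. Snap25, of the synaptic release machinery, stood at 92.1, 98.4 and 311 against 4.99, 157 and 52.3 CPM and at 2016, 2473 and 2137 CPM in cortex. Slc17a7, the glutamate transporter of cortical excitatory neurons, stood at 80.5, 86 and 204 against 6.56, 115 and 27 CPM. Neurofilament genes were lower in all ETV5 libraries: Nefm stood at 24.6, 14.7 and 38.3 against 1.05, 13.5 and 6.29 CPM and Nefh at 9, 6.93 and 21.5 against 0.131, 6.87 and 1.24 CPM.

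Lists of excitatory neurons (12 of 13 below 0, median -1.51), inhibitory neurons (10 of 10, median -1.11) and presynaptic genes (17 of 18, median -0.94) stood likewise. Without ETV5 library 1 these medians were -0.90, -0.55 and -0.61. Without ETV5 library 2 those of inhibitory neurons and presynaptic genes were -1.82 and -1.44. Npy and the neuronal genes were thus low together in ETV5 libraries 1 and 3. In ETV5 library 2, where the pan-neuronal genes had a median deviation of -0.23, Npy was 18.5 CPM against a lowest control of 21.5 CPM, and Npy2r was 1.2 against 2.44 CPM. The part of neuronal content in the Npy difference was not tested. In bulk tissue, fewer cells of a type and less RNA per cell cannot be told apart.

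**Figure D3:**
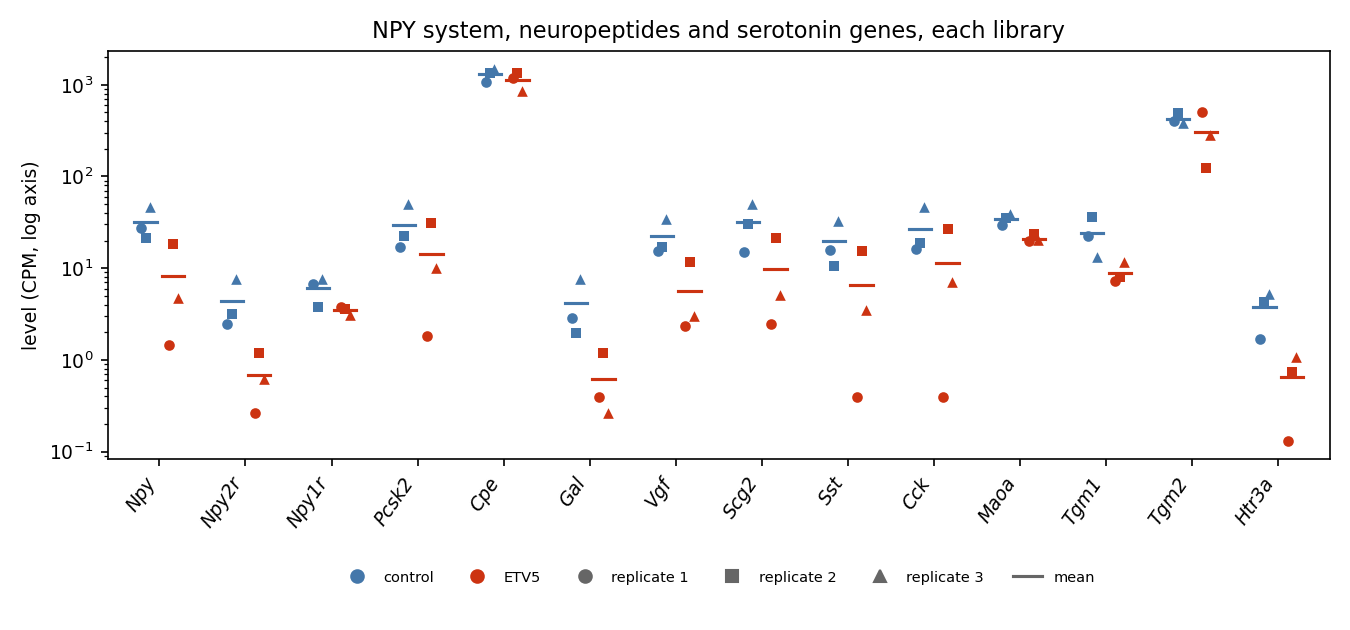
Levels (CPM, log axis) of genes of the NPY system, other neuropeptides and serotonin handling in the 3 control (blue) and 3 ETV5 (red) libraries, with replicates by symbol and group means as bars. Npy, Npy2r, Gal, Vgf, Maoa, Tgm1 and Htr3a lie lower in every ETV5 library than in every control, and ETV5 library 1 (red circle) is the lowest for most neuronal genes.

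Serotonin genes were mostly low in the tumours, and 2 of the 8 tested genes of synthesis, transport and serotonylation were lower without overlap (7.48% of all genes). The list median was -0.66, and -0.26 without ETV5 library 2, with 3 of 8 above 0. Maoa, which degrades serotonin, stood at 29.4, 35.3 and 38.9 against 19.6, 23.3 and 20.3 CPM (log2 fold change -0.72, SE 0.19, DESeq2 adjusted p = 0.0862). Its 3 ETV5 libraries lay close together under the controls. Tgm1, a transglutaminase known best from skin, stood at 22.2, 36.1 and 13.4 against 7.22, 7.92 and 11.7 CPM (-1.33, SE 0.43). Tgm2, the transglutaminase known to serotonylate histone H3, stood at 404, 498 and 382 against 508, 124 and 281 CPM, with ETV5 library 1 above all controls and ETV5 library 2 under all of them.

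Of the synthesis genes, Tph2, the neuronal tryptophan hydroxylase, stood at 1.06, 1.76 and 2.87 against 0.656, 1.49 and 0.531 CPM, and Ddc, which makes serotonin from its precursor, at 8.26, 7.71 and 12.1 against 24.3, 4.48 and 15.7 CPM. The vesicular transporter Slc18a2 (7.73, 3.08 and 3.99 against 4.59, 6.13 and 4.34 CPM), the uptake transporter Slc29a4 (2.44, 4.51 and 6.06 against 2.49, 1.79 and 4.07 CPM) and Maob (10.6, 10.5 and 19.9 against 19.8, 14.5 and 17.3 CPM) overlapped. Slc6a4, the serotonin transporter of neurons, was too low to be tested, at 0.635, 0.991 and 0.319 and 0.131, 0 and 0.266 CPM. Of 13 receptor genes 3 were tested. Htr3a, the channel receptor, stood at 1.69, 4.29 and 5.27 against 0.131, 0.747 and 1.06 CPM, lower in every ETV5 library. Htr5a stood at 1.38, 1.87 and 3.03 against 0, 1.49 and 1.15 CPM and Htr2a at 1.69, 0.881 and 1.44 against 0.656, 4.18 and 0.886 CPM.

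The 76 genes that DESeq2 alone called did not overlap between groups, and each had an unadjusted limma p under 0.05. Over all genes tested these shares were 13.7% and 6.56%. The 76 were picked on the same 6 libraries, so neither trait is separate support for the calls. Log2 fold changes and SE given for the 76 are those of limma. Among the 17 higher genes, Rgs1, a brake on G protein signalling known from immune cells, stood at 3.92, 4.4 and 2.71 CPM in controls and 17.8, 10.5 and 19 CPM in ETV5 tumours (log2 fold change 2.03, SE 0.37, DESeq2 adjusted p = 0.000631). Every ETV5 library was well above the controls. It was the sole higher gene still called by DESeq2 when each library in turn was left out. Wnk4, a kinase that regulates ion transporters, stood at 24.7, 24.7 and 26.5 against 55, 43.8 and 60.3 CPM (1.04, SE 0.18, DESeq2 adjusted p = 0.00124). Ccdc85c, known from the apical junctions of radial glia, stood at 21.4, 20.8 and 19.1 against 34.6, 44.5 and 46.9 CPM (1.01, DESeq2 adjusted p = 0.00186).

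Per1, of the circadian clock, stood at 41.1, 32.6 and 29.8 against 61.5, 71.3 and 69.4 CPM, and Crat, a mitochondrial enzyme that moves acetyl groups onto carnitine, at 136, 153 and 176 against 247, 340.2 and 274 CPM. DESeq2 gave adjusted p = 0.0029 for Per1 and 0.00311 for Crat. Zfp609, a zinc finger gene, stood at 47.8, 49.1 and 44.2 against 88.3, 73.4 and 80.9 CPM, Erdr1, whose repetitive locus makes its counts uncertain, at 51.5, 36 and 48.7 against 81.9, 83.1 and 77.9 CPM and Ubxn10, known from cilia, at 7.94, 4.62 and 5.74 against 13.8, 21.5 and 15.1 CPM. Their log2 fold changes ran from 0.77 for Zfp609 to 1.44 for Ubxn10. Nrarp, an inhibitor of Notch signalling that Notch itself induces, stood at 36.6, 25.3 and 30.0 against 51, 59.6 and 58.3 CPM. The Notch list as a whole lay on the other side: 10 of 14 tested genes were below 0 (median -0.26), and Nrarp was its sole gene without overlap. That median was -0.15, -0.15 and -0.17 without ETV5 library 1, 2 and 3. Ndst1 (0.51), which sulfates heparan chains, and the kinase gene Map3k2 (0.60) were also in this set.

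Of the 59 genes that DESeq2 called lower, Eng had the smallest adjusted p, shared with Sepp1 and Sez6. Eng (endoglin), a TGF-beta coreceptor of endothelium, stood at 73.9, 64.8 and 69.4 CPM in controls and 35, 35.9 and 38 CPM in ETV5 tumours (log2 fold change -0.94, SE 0.14, DESeq2 adjusted p = 2.74e-05). The ETV5 libraries were nearly equal and well under the controls. Sepp1 (selenoprotein P), the carrier of selenium, stood at 1054, 767 and 1093 against 438, 401 and 454 CPM (-1.17, SE 0.17, DESeq2 adjusted p = 2.74e-05). Sez6, a membrane protein of neurons that shapes dendrites, stood at 108, 46.3 and 103 against 8.79, 16 and 18.5 CPM (-2.54, SE 0.42, DESeq2 adjusted p = 2.74e-05). Sepp1 and Sez6 were the lower genes that kept the DESeq2 call whichever library was left out. Sez6 was low in ETV5 library 2 as well, where most neuronal genes were near the control mean.

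Pla2g7, a phospholipase that degrades platelet-activating factor, stood at 247, 238 and 188 against 106, 96.2 and 104 CPM, and Pkp4, a plakophilin of cell junctions, at 109, 99 and 122 against 59.3, 56.6 and 63.2 CPM. DESeq2 gave adjusted p = 4.27e-05 and 0.000201 for them. Of vessel genes, Nrp1, a coreceptor of VEGF and semaphorins, stood at 158, 116 and 107 against 55.9, 62.9 and 58.4 CPM. Acvrl1, an endothelial receptor for bone morphogenetic proteins, stood at 44.2, 36.3 and 32.1 against 21, 19.1 and 19.9 CPM. Gja4, a connexin of arteries, stood at 11.4, 9.8 and 13.1 against 5.25, 3.29 and 3.45 CPM, and Vtn (vitronectin), made by brain pericytes, at 29.5, 35 and 28.7 against 14.6, 8.22 and 11 CPM.

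Of myeloid genes, Clec4n, the fungal receptor Dectin-2, stood at 19.3, 19.4 and 12.3 against 5.38, 4.33 and 3.37 CPM, and Wfdc17 at 20.8, 19.9 and 19.1 against 4.99, 8.22 and 7.71 CPM. Ms4a7, a marker of border and infiltrating macrophages, stood at 80.2, 104 and 71.6 against 19.2, 7.92 and 31.8 CPM, and Ccl8, a chemokine, at 61.4, 53.7 and 8.46 against 5.25, 3.59 and 5.05 CPM. For Ccl8, control library 3 was much nearer to the ETV5 libraries than the other controls. Osmr, the receptor of oncostatin M, stood at 85.2, 95.7 and 74 against 31.6, 45.1 and 38.9 CPM and Abca9, of the lipid transporter family, at 41.9, 35.7 and 32.1 against 13, 13.5 and 17.7 CPM. Cml5, of the acetyltransferase-like family, stood at 6.04, 4.18 and 5.59 against 0.919, 1.2 and 0.797 CPM. Lymphocyte-related genes were few and low: Cd4 stood at 7.31, 9.8 and 3.35 against 0.525, 1.64 and 1.42 CPM and Cd79b, of the B cell receptor, at 6.04, 6.71 and 3.51 against 1.44, 1.79 and 1.15 CPM.

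Genes known from neural cells were among the calls too, and which cells of the tumours expressed them was not tested. Vim, the intermediate filament of radial glia and of the tumour cells, stood at 2024, 1799 and 2120.3 against 1366, 1368 and 1433 CPM (log2 fold change -0.52, SE 0.14, DESeq2 adjusted p = 0.0174). Sox1, a factor of neural progenitors, stood at 3.18, 2.09 and 4.15 against 0.394, 0.448 and 0.709 CPM. It was under 1 CPM in every ETV5 library. The DESeq2 call of Sox1 was near the threshold, with adjusted p = 0.0361. Neither Vim nor Sox1 kept its DESeq2 call in any fit with 1 library left out.

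How many genes DESeq2 called depended on single libraries. Without control library 2 it called 6 genes, 4 of them among the 76, and without control library 1 it called 36, of which 20 were shared. Without control library 3 it called 77 (36 shared). Without ETV5 library 1 it called 273, without ETV5 library 2 it called 254, and without ETV5 library 3, which leaves libraries of 1 code prefix, it called 122. Of the 76, these sets held 49, 53 and 26. limma called 0 genes in each of these 6 fits.

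By size, the largest differences among non-overlapping genes with at least 5 CPM included genes that are high in 1 or 2 libraries. On the higher side were Jchain, of antibody-making plasma cells (3.71, 0 and 0.319 against 5.91, 6.87 and 5.67 CPM), and S100a9, of neutrophils (2.97, 3.74 and 0.798 against 6.69, 21.2 and 26.6 CPM). Vwa5b1 stood at 3.39, 2.75 and 0.319 against 4.33, 17 and 19.9 CPM and Hif3a, a hypoxia-related factor, at 3.07, 1.1 and 0.957 against 6.43, 21.4 and 4.16 CPM. Alas2, the first enzyme of haem synthesis in red cell precursors, stood at 0.847, 1.1 and 1.91 against 9.32, 3.59 and 5.85 CPM, while the globin genes Hba-a1, Hba-a2, Hbb-bs and Hbb-bt are listed at 0 in all 6 libraries. Spdef, an ETS factor of goblet cells, stood at 0.953, 0.66 and 0.957 against 1.31, 51.6 and 1.95 CPM, and Megf6 at 9.32, 7.04 and 8.62 against 14.2, 213 and 15.1 CPM, both carried by ETV5 library 2. Tmem82 stood at 3.18, 4.18 and 3.67 against 5.25, 25.1 and 9.92 CPM.

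Ntn1 (netrin), among the largest higher differences, stood at 35.1, 23.6 and 35.4 against 41.9, 185 and 136 CPM, with ETV5 library 1 near the controls (log2 fold change 1.71, SE 0.55, DESeq2 adjusted p = 0.0368). Slit3 stood at 4.24, 4.07 and 3.99 against 20.7, 10.8 and 8.95 CPM, high in each ETV5 library (1.58, SE 0.36, DESeq2 adjusted p = 0.0266). On the lower side DESeq2 called Robo2, a receptor for Slit proteins, at 29.4, 41.2 and 46 against 18.1, 13.3 and 19.7 CPM (-1.19, DESeq2 adjusted p = 0.023). It also called Sema4a, a semaphorin, at 23.5, 34.1 and 26 against 12.9, 10.5 and 11 CPM (-1.27, DESeq2 adjusted p = 0.0025). Rn45s, the ribosomal precursor RNA that mRNA selection should remove, stood at 754, 618 and 754 against 1409, 1079 and 5503 CPM, highest in ETV5 library 3. It belongs to a list of 10 genes chosen to describe RNA composition. Of these, 5 were higher and 2 lower without overlap, against 6.26% and 7.48% of all genes. The part of RNA quality or library preparation in the group differences was not tested.

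On the lower side the largest difference was of Col2a1, the cartilage collagen, at 14.1, 699 and 154 against 9.97, 1.64 and 10.5 CPM. Control library 2 made most of it, and control library 1 lay close to the ETV5 libraries. Msln (mesothelin) stood at 16.7, 3.08 and 6.86 against 0, 1.35 and 2.48 CPM and H2-Ob, a class II chaperone subunit of B cells, at 10.3, 10.6 and 6.54 against 2.62, 0.598 and 0.531 CPM. Chga (chromogranin), of secretory granules, stood at 21.3, 18.6 and 63 against 0.919, 14.6 and 3.81 CPM, Crtac1 at 18.2, 11 and 26.8 against 0.525, 7.47 and 2.48 CPM and Nptx2, a synaptic pentraxin, at 5.82, 29.2 and 28.6 against 1.44, 4.48 and 2.3 CPM. Prph (peripherin) stood at 2.97, 7.37 and 7.02 against 0.394, 0.299 and 1.68 CPM, Edn3 (endothelin) at 3.49, 5.83 and 8.46 against 0.656, 1.94 and 0.354 CPM and Calca, of the calcitonin gene, at 13.2, 7.04 and 8.78 against 0.394, 3.89 and 1.86 CPM. Dnase1l3, a nuclease of macrophages and dendritic cells, stood at 12.1, 21.2 and 4.95 against 1.31, 3.59 and 0.974 CPM.

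Most cell type lists had medians below 0, to different degrees in the 3 ETV5 libraries. Of 14 myelin genes 14 were below 0 (median -1.20, and -1.81 without ETV5 library 3), 4 without overlap (7.48% of all genes lower). Mbp, the myelin basic protein gene, stood at 2162, 923 and 1686 against 161, 641 and 905 CPM and Mog at 31.9, 20.5 and 31.4 against 3.94, 7.47 and 16.1 CPM. The summed myelin level was 3381 to 5812 CPM in controls and 2444 to 4261 CPM in ETV5 tumours. Of 14 astrocyte genes 13 were below 0 (median -0.70, 4 without overlap), with a median of -0.46 without ETV5 library 1. Slc1a2, the main glutamate transporter of astrocytes, stood at 525, 639 and 611 against 94.1, 519.6 and 237 CPM, with ETV5 library 2 just under the controls. Slc1a3, its relative in radial glia, stood at 537, 646 and 473 against 88.2, 637 and 201 CPM, and Gja1, a connexin, at 156, 200.3 and 214 against 160.0, 129.9 and 96.2 CPM.

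Of 17 radial glia genes 11 were below 0 and 6 above. Without overlap, 2 were lower and 1 higher, against 7.48% and 6.26% of all genes. Their median deviation from the control mean was -0.60, 0.20 and 0.12 in ETV5 libraries 1, 2 and 3. The median log2 fold change of -0.23 was 0.09 without ETV5 library 1, so its sign rests on that library. It was -0.06 without control library 2 and -0.46 without ETV5 library 3. Tnc (tenascin), a matrix protein of the stem cell niche, stood at 139.7, 156 and 131 against 94.2, 47.7 and 59.5 CPM, lower in every ETV5 library. Oligodendrocyte precursor genes had no steady sign (median -0.17, 0.01 without ETV5 library 1, 0.09 without ETV5 library 2 and -0.64 without ETV5 library 3). Of the 12 tested, 5 were above 0 and 7 below. The list's median deviation from the control mean was -0.50, -0.60 and 0.79 in ETV5 libraries 1, 2 and 3. From the lower side, Gpr17 stood at 66.2, 84.5 and 110.4 against 21.1, 13.2 and 75 CPM. Neu4, also lower, stood at 18.4, 17.5 and 16.8 against 5.25, 2.84 and 14.5 CPM. For both genes ETV5 library 3 was the ETV5 library nearest to the controls.

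Macrophage and microglia genes were lower in part. Of 19 macrophage genes 12 were below 0 (median -0.79, and -0.51 without control library 1), and 5 were lower without overlap (7.48% of all genes). The other 7 were above 0, the highest at 0.95, and the macrophage genes given next are all from the lower side. Lyz2 (lysozyme) stood at 2222, 1566 and 978 against 608, 210.3 and 674 CPM, Mrc1, the mannose receptor, at 109.9, 109 and 74.7 against 52.9, 13 and 22.9 CPM and Cd68, of lysosomes, at 129, 114 and 89.8 against 44, 58.6 and 78.4 CPM. Apoe, shared by macrophages and astrocytes, stood at 10116, 5161 and 5706 against 1878, 4105 and 4465 CPM. The summed macrophage level was 9759 to 18562 CPM in controls and 5177 to 9344 CPM in ETV5 tumours.

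Of 11 microglia genes 9 were below 0 (median -0.61), and 3 were lower without overlap (7.48% of all genes). That median was -0.27 without ETV5 library 1 and -0.91 without ETV5 library 3. Csf1r, the receptor on which microglia depend, stood at 662, 584 and 409.8 against 169, 307 and 310.2 CPM, Cx3cr1 at 422, 320.2 and 265 against 99.1, 187 and 214 CPM and Gpr34 at 38.5, 38.3 and 49.8 against 16.4, 23 and 28.8 CPM. Tmem119, a marker of microglia, went otherwise, at 492, 320.2 and 197 against 249, 394 and 526 CPM. The neutrophil genes S100a8 (2.22, 2.97 and 1.28 against 3.02, 11.8 and 13.9 CPM) and S100a9 stood higher in ETV5 libraries 2 and 3, while Csf3r, the neutrophil growth factor receptor, stood at 63, 69.8 and 35.9 against 14.2, 38.3 and 36.8 CPM.

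Vessel genes had medians below 0 in all 3 ETV5 libraries, while matrix genes had not. Of 16 endothelial genes 15 were below 0 (median -0.61), and 5 were lower without overlap (7.48% of all genes). The endothelial library medians were -0.42, -0.38 and -0.85. Pecam1 stood at 43.7, 62.9 and 60.5 against 40.0, 30.3 and 25.2 CPM, and Tek, the angiopoietin receptor, at 11.9, 17.9 and 21.5 against 6.95, 9.56 and 6.55 CPM. Of 11 pericyte and smooth muscle genes 10 were below 0 (median -0.65, 4 without overlap), with library medians of -0.32, -1.30 and -0.76. Pdgfrb stood at 310.2, 302 and 261 against 240.3, 162 and 167 CPM and Rgs5 at 35.1, 40.6 and 36.7 against 18.2, 12.7 and 28.3 CPM. The endothelial median stayed between -0.72 and -0.52 whichever library was left out.

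Of 17 matrix genes 14 were below 0 (median -0.59), 3 of them without overlap (7.48% of all genes lower). The library medians were 0.21, -0.90 and -0.54 in ETV5 libraries 1, 2 and 3, so library 1 lay above the control mean. The list median was -0.22 without control library 1 and -0.25 without ETV5 library 2. Col1a1, a fibrillar collagen, stood at 1449, 2293 and 1263 against 662, 934 and 591 CPM (DESeq2 adjusted p = 0.0466) and Fn1 (fibronectin) at 1219.9, 2333 and 1272 against 1198, 578 and 1020.3 CPM. Col3a1 stood at 248, 380.1 and 327 against 406, 62.9 and 26.5 CPM, with ETV5 library 1 above the controls and libraries 2 and 3 far under them. The fibroblast genes Lum (43.2, 40.3 and 77.1 against 33.2, 9.42 and 8.15 CPM) and Ogn (64.9, 103 and 105 against 35, 13.5 and 69.4 CPM) were lowest in ETV5 library 2 or 3.

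**Figure D4:**
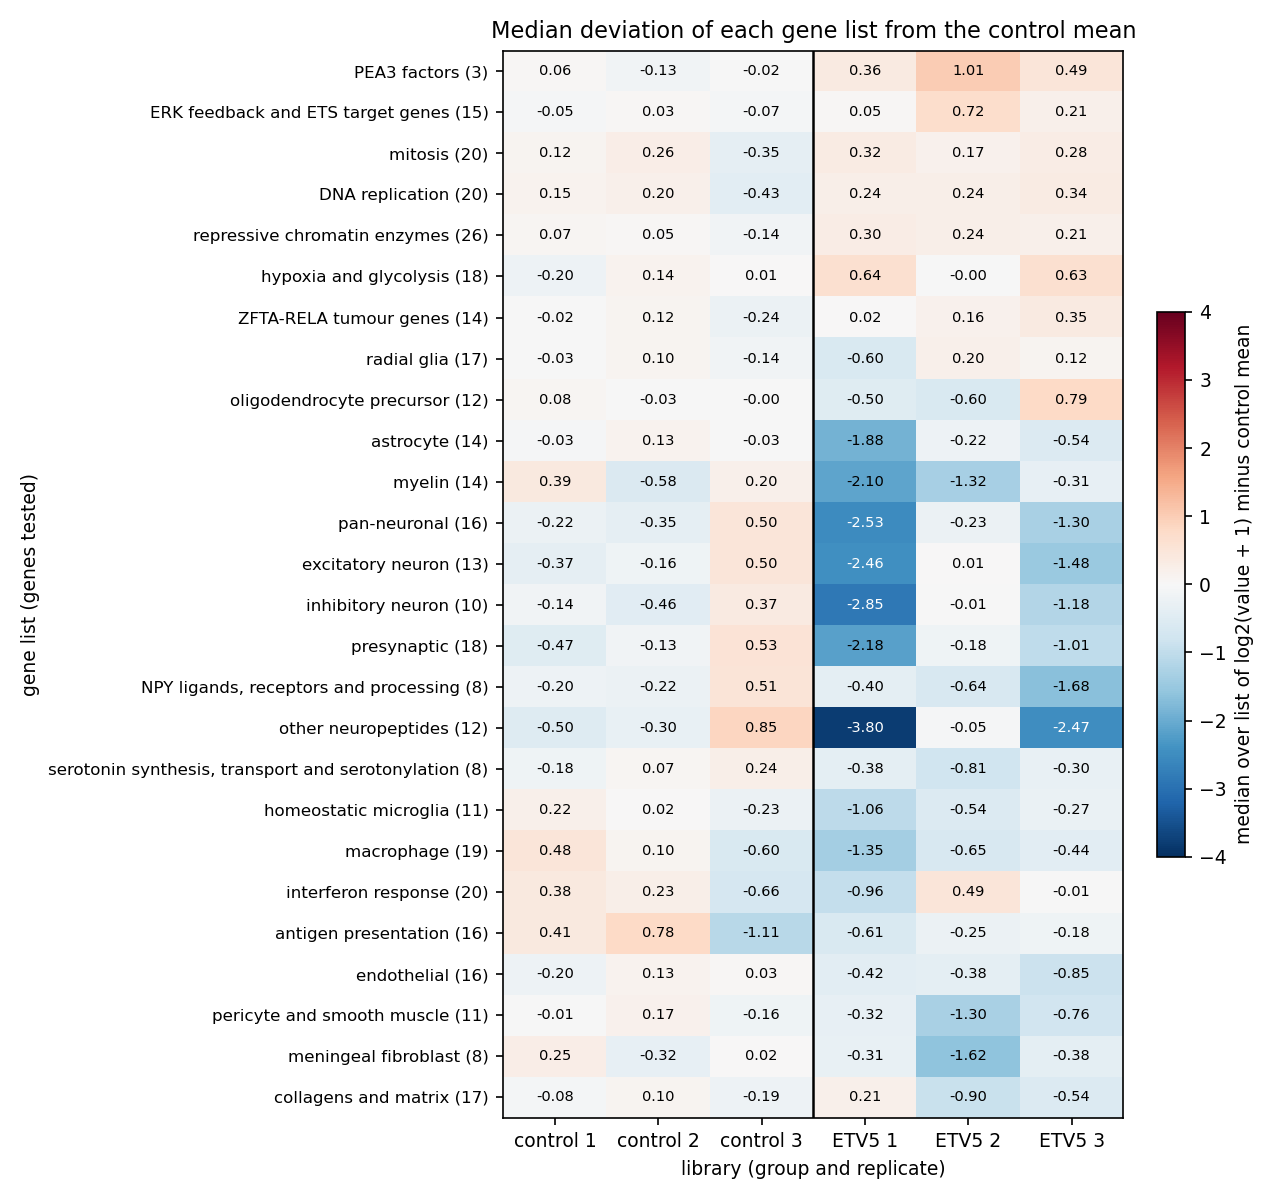
Rows are gene lists with the number of genes tested, columns are the 3 control and 3 ETV5 libraries, and each cell is the median over the list of log2(value + 1) minus the control mean of the gene (red above, blue below). Neuronal lists are lowest in ETV5 library 1 (pan-neuronal -2.53) and near 0 in ETV5 library 2, while mitosis and DNA replication are above 0 in all 3 ETV5 libraries.

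Genes of dividing cells stood slightly higher. All 20 mitosis genes were above 0, with a median log2 fold change of 0.26, and 2 did not overlap, a share close to the 6.26% of all genes. Top2a, a topoisomerase of dividing cells, stood at 204, 215 and 135 against 235, 256 and 221 CPM, Kif11, a spindle motor, at 57.3, 57.8 and 40.2 against 67.2, 105 and 72 CPM and Mki67 at 151, 229 and 158 against 283, 298 and 172 CPM. All 20 DNA replication genes were above 0 as well (median 0.27, 2 without overlap), among them Rfc4, of the clamp loader, at 28, 23.3 and 15.3 against 29.1, 32.1 and 32.6 CPM, and Cdc6, of the origin licensing complex, at 13.3, 12.3 and 8.3 against 16, 22.6 and 13.2 CPM. Control library 3 was the lowest library for both lists. Without it the medians were 0.13 for mitosis and 0.11 for DNA replication, and without control library 2 that of mitosis was 0.42.

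Enzymes of repressive chromatin, which the series bears on through its interest in histone marks, leaned the same way. Of 26, 21 were above 0 and 4 were higher without overlap, against 6.26% of all genes. The median was 0.21, and 0.11 without ETV5 library 1. Ezh2, the methyltransferase of Polycomb, stood at 42.6, 45.8 and 35.4 against 52, 54.5 and 46.8 CPM, and its partner Suz12 at 79.2, 94.8 and 78 against 130.3, 126 and 116 CPM (log2 fold change 0.56, SE 0.15). Ehmt2 (G9a), which methylates histone H3, stood at 241, 225 and 215 against 271, 291 and 306 CPM, and the DNA methyltransferase gene Dnmt3a at 146, 144 and 116 against 194, 180.1 and 198 CPM (0.49, SE 0.17). None of the 26 was called by limma or DESeq2.

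Hypoxia and glycolysis genes stood higher in ETV5 libraries 1 and 3. Of 18, 15 were above 0 (median 0.37), with library medians of 0.64, -0.00 and 0.63. Without overlap, 3 were higher and 1 lower, against 6.26% and 7.48% of all genes. Car9, a carbonic anhydrase induced by low oxygen, stood at 10.3, 5.61 and 17.1 against 23.2, 19.3 and 47.6 CPM and Ldha, of lactate production, at 405, 559 and 497 against 772, 722 and 619 CPM. Ndrg1, also hypoxia-induced, went the other way, at 262, 234 and 224 against 188, 91.8 and 204 CPM. Of the 16 genes of ER and amino acid stress, 9 were below 0. Their median of -0.07 changed sign without control library 2 (0.04) or ETV5 library 1 (0.09). Ddit4, an inhibitor of mTOR signalling, was the gene of that list without overlap, at 240.3, 188 and 256 against 442, 268 and 448 CPM.

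Of the 20 interferon response and 16 antigen presentation genes listed, 0 were free of overlap in either direction, against 13.7% of all genes. The lists leave out H2-Ob and the interferon-inducible gene Ifi30, which DESeq2 called lower and whose groups did not overlap. The interferon median was -0.16, and between -0.45 and 0.20 with 1 library left out (lowest without ETV5 library 2, highest without ETV5 library 1). The antigen presentation median was -0.41, -0.14 without control library 2 and -0.91 without control library 3. H2-D1, a class I gene, stood at 1057, 1542 and 723 against 699, 719 and 589.6 CPM. The class II genes, whose close relatives make counts uncertain, differed in their order of libraries. H2-Aa stood at 677, 894 and 130.1 against 299, 94.9 and 104 CPM and H2-Eb1 at 6.46, 12.9 and 1.12 against 10.5, 56.2 and 72.5 CPM, so that H2-Eb1 was low in all controls and in ETV5 library 1.

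The 3 ETV5 tumours differed from one another more than the controls did. On the first principal component (39.6% of the variance over the genes tested) ETV5 library 1 stood apart from the other 5. Genes at least 4-fold outside the range of all other libraries numbered 29 above and 172 below for ETV5 library 1, 35 above and 26 below for library 2, and 6 above and 16 below for library 3. For each control these counts were 0 to 5.

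Of the genes far below in ETV5 library 1, Calb1, the calcium buffer calbindin, stood at 0 CPM there against 4.34 to 28.7 CPM in the other libraries, and Lefty1, a Nodal inhibitor, at 0 against 4.48 to 7.26 CPM. Those far above included Cst9, a cystatin, at 37.3 against at most 3.14 CPM, and Fut2, a fucosyltransferase, at 30.8 against at most 3.35 CPM.

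In ETV5 library 2, Gldc, the glycine cleavage enzyme, stood at 397 CPM against 6.55 to 27.1 CPM elsewhere, and Six3, a factor of the anterior forebrain and eye, at 71.3 CPM against at most 4.77 CPM. Fam167a stood at 324 against at most 14.7 CPM. The mesenchymal genes Mmp11 (0.299 against 4.07 to 23.2 CPM) and Meox2 (0.149 against 1.87 to 7.97 CPM) were low in it. These came with its high ERK feedback genes. Meningeal fibroblast genes had a median deviation from the control mean of -1.62 in it, against -0.31 and -0.38 in ETV5 libraries 1 and 3. Their summed level did not follow, at 886 CPM in ETV5 library 2 against 829 and 623 CPM in ETV5 libraries 1 and 3. The controls ranged from 717 to 1288 CPM.

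In ETV5 library 3, Matn1, a matrilin of cartilage, stood at 248 CPM against at most 5.51 CPM, Matn2 at 151 against at most 36.5 CPM and Cdh15, a cadherin of muscle precursors, at 123 against at most 22.6 CPM. Cdkn1c, an imprinted inhibitor of the cell cycle, stood at 4.34 CPM there. It ranged from 69.7 to 845 CPM in the other libraries. Each of these genes was far outside the others in 1 library and not in the ETV5 libraries as a group.

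**Figure D5:**
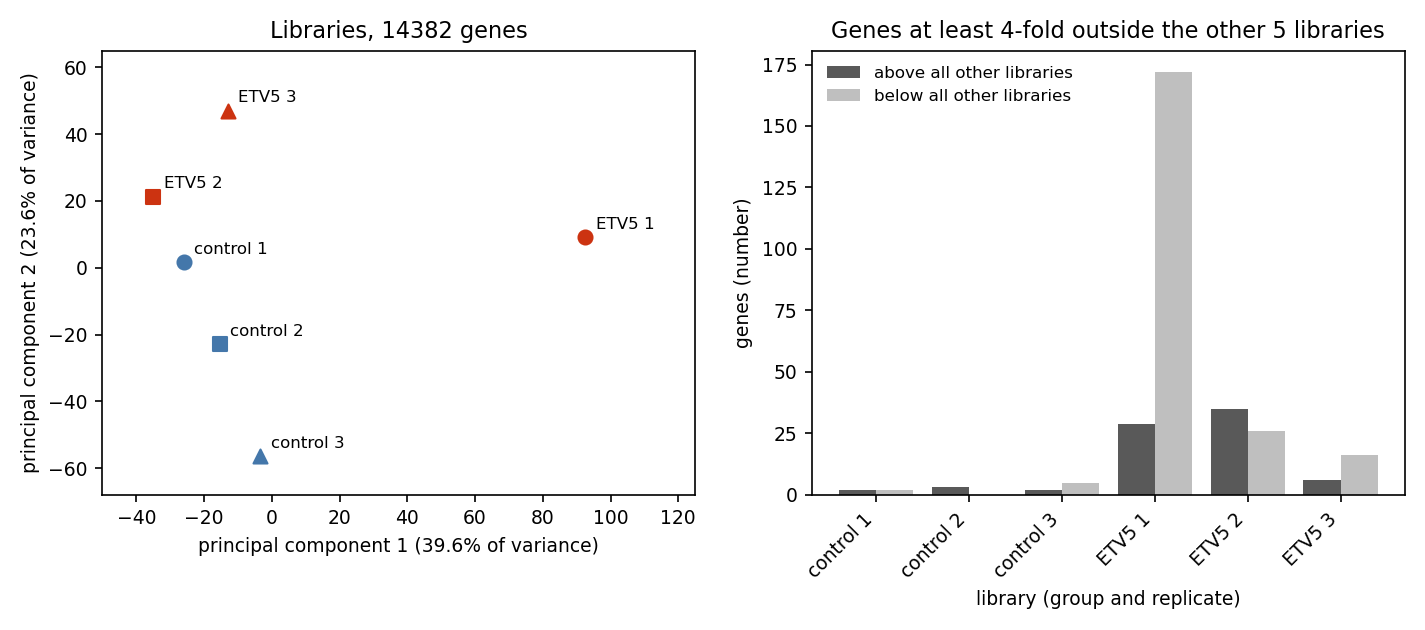
Left, the 6 libraries on the first and second principal components of log2(value + 1), with the share of variance on each axis. Right, the number of genes at least 4-fold above (dark) or below (light) the range of the other 5 libraries, which is highest for ETV5 library 1 (172 below).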

How the data were processed

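The authors deposited, for 24421 genes, a normalized signal per library, and 100% of values were whole reads divided by 1 size factor per library within 0.01 read, so reads were recovered. Per the submitters' processing notes the tools were STAR 2.5.0a (alignment software) and DESeq2 1.30.1, with FastQC 0.11.7 and MultiQC 1.6 for quality, on build mm10. No source used here names a counting tool or gene annotation. Per the labels, 300 ng of total RNA went into stranded mRNA libraries. No 2 libraries agreed within sampling noise.

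Because the deposited values were a normalized signal, the test was limma 3.58.1 with trend and robust moderation (R 4.3.3) on log2(value + 1), two-sided, with group as the sole term and Benjamini-Hochberg adjustment over the 14382 genes that passed edgeR's filter. On this scale folds of low genes are understated. Recovered reads gave CPM and the alternative tests with edgeR 4.0.16, limma-voom and DESeq2 1.42.0. Cortex was left out of the fit, and the NPY libraries, in another table, were not used. Scripts were tested on simulated data. Same-numbered libraries did not deviate together (correlations -0.26, -0.04 and -0.37), so numbers were not treated as pairs.

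Named genes were PEA3, NPY and serotonin genes in full. Up to 4 per other list followed by lowest p or abundance, then the 12 largest non-overlapping differences per direction with at least 5 CPM and the 6 lowest p. The 8 lowest DESeq2 p per direction and the 5 genes per side farthest outside the other libraries completed the rule. A few genes are not reported here. Other names (further DESeq2 calls and list members) were chosen after their values were seen. Genes and lists were chosen with earlier results of these data known. Positions are from GENCODE M21 and promoters from RefSeq.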

Additional observations from a re-analysis of the deposited data

How the results depend on the processing

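limma called 0 genes under each scaling, pseudocount, filter and moderation tried, without each library in turn, and with the cortex libraries in the fit. DESeq2 called 76. With cortex in the fit, 1643 genes had an unadjusted p under 0.05 in place of 944. Leaving out 1 library gave 532 to 1460 such genes, 3068 to 4171 genes without overlap (fewer samples make non-overlap easier) and 6 to 273 calls by DESeq2. DESeq2 called 76 also without its outlier or low-count filter. With the replicate block, limma called 0 genes and 681 had an unadjusted p under 0.05. The same-numbered libraries share only a number. With the Xist class of a library as a term, an alternative chosen after seeing the data, limma called 0 genes, with 1260 at an unadjusted p under 0.05.

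Of 158 genes described by their group difference, 150 kept the sign of their log2 fold change under all 19 alternatives. The other 8 changed sign when 1 library was left out, and their lowest and highest values were -0.12 and 1.07 for Ddc, -0.0073 and 0.92 for Etv1, -0.67 and 0.56 for Htr2a, -0.22 and 1.03 for Il17rd, -1.24 and 0.10 for Nr5a1, -0.15 and 0.48 for Slc18a2, -0.23 and 1.06 for Tac2 and -0.13 and 0.56 for Tmem119. With the Xist class as a term the values were -0.26 for Htr2a, -0.12 for Slc18a2 and -0.081 for Tmem119, and the cause was not tested. Medians of 33 of 43 gene lists kept their sign under all alternatives.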

Other observations

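ETS factors outside the PEA3 group had values on both sides of 0. Of 15 tested, 5 were above 0 and 10 below, with a median log2 fold change (ETV5 minus control, limma) of -0.15, and none was called. The list leaves out Spdef, an ETS factor with 1 of the largest higher differences. The difference between this list and the PEA3 group was not tested. Fli1, an ETS factor of endothelium and blood, was lower in every ETV5 library, at 19, 24.3 and 17.4 CPM in control libraries 1, 2 and 3 and 9.71, 13.2 and 12.3 CPM in the ETV5 libraries. Spi1 (PU.1), the ETS factor of macrophages, stood at 67.3, 55.1 and 31.8 against 18.8, 32.9 and 42 CPM, and Gabpa, present in most cells and the list's gene higher without overlap, at 52.7, 63.6 and 70.5 against 77.7, 77 and 70.7 CPM. The kinases and adaptors upstream of ERK had a median of 0.00 over 23 genes. Met, the hepatocyte growth factor receptor, was the member lower without overlap, at 10.6, 6.93 and 9.73 against 2.23, 5.38 and 4.96 CPM. Higher without overlap were 2 members (6.26% of all genes). Among them was Sos1, which loads RAS with GTP, at 56.9, 53.5 and 64.6 against 76.8, 76.1 and 63.1 CPM. In CPM, control library 3 was a shade above ETV5 library 3 for Sos1.

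Genes of NF-kB, to which RELA belongs, showed no steady sign, with a median of -0.09 that was 0.04 without control library 1, 0.04 without control library 2, 0.02 without ETV5 library 2 and -0.52 without control library 3. Relb was the gene of that list lower without overlap, at 24.2, 28.7 and 19.8 against 18, 13.7 and 17.2 CPM. The host gene of the fusion, 2700081O15Rik (Zfta), stood at 261, 215 and 196 against 264, 300.1 and 470.5 CPM, highest in ETV5 library 3. Of 14 p53 target genes 9 were below 0, with a median of -0.18 that was -0.01 without ETV5 library 1, -0.07 without control library 2 and -0.46 without ETV5 library 2. Ccng1, a cyclin, stood at 94.6, 103 and 129 against 72.8, 82.8 and 86.4 CPM and Sesn1, a stress sensor, stood at 76.7, 57.8 and 75 against 45.3, 41.4 and 48.7 CPM. Of the 14 immediate early genes 7 were above 0 and 7 below (median -0.08, and 0.02 without control library 2). Dusp1, a phosphatase of MAP kinases, was higher without overlap, at 22.8, 18.2 and 18.8 against 28, 24.4 and 29.6 CPM. Nr4a2 stood at 3.28, 5.06 and 3.03 against 1.44, 1.64 and 1.68 CPM and Fosb at 3.28, 4.84 and 3.19 against 1.84, 2.54 and 1.77 CPM, both lower in every ETV5 library.

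The tumours of both groups held transcripts foreign to cortex. Of 6 muscle and gonadal genes tested 5 were below 0. Their median of -0.45 lay between -1.04 and -0.03 with 1 library left out (without ETV5 library 1 and 2 respectively). The exception was Tnnt3, a troponin of fast skeletal muscle, at 343, 358 and 474 CPM in controls and 485, 655 and 515 CPM in ETV5 tumours, higher in every ETV5 library. Nr5a1, the steroidogenic factor of gonad and adrenal gland, stood at 303, 227 and 368 against 363, 56 and 273 CPM, with ETV5 library 2 far under the rest. Of 8 motile cilia genes 6 were below 0 (median -0.44, and -0.26 to -0.79 without ETV5 library 1 and control library 3). Foxj1, the master factor of motile cilia and a marker of ependyma, stood at 13, 9.14 and 6.38 against 1.05, 8.22 and 2.92 CPM, lowest in ETV5 library 1. Proneural and neurodevelopmental factors had no steady sign, with 10 of 18 above 0 (median 0.02). Neurod1, a proneural factor, stood at 1.48, 0.66 and 2.55 against 0, 1.35 and 0.266 CPM.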
